A study of Mus musculus with 20 samples.

Results

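The genes described here are 10 genes of the circadian clock and its direct output, Dbp, Tef, Hlf, Nr1d1, Nr1d2, Per1, Per2, Per3, Arntl and Cry1, measured in mouse liver. They were chosen by symbol, with every probe kept, and have 15 probes among the 30146 of the assay. The 20 livers came from male Balb-C mice aged 10 to 12 weeks that were gavaged once a day, in the afternoon, for 7 days. A group of 4 mice received vehicle (0 mg/kg), and groups of 4 received Nafion BP2 (PFESA-BP2, Nafion byproduct 2, a perfluorinated ether sulfonic acid) at 0.03, 0.3, 3 or 6 mg/kg per day. The protocols give deionized water as the vehicle, while the control sample names carry the word DMSO. The labels state that dosing took place in the afternoon, and the hour at which livers were taken is not given in the sources used here. RNA was measured with TempO-Seq, in which detector oligonucleotides that anneal side by side on a transcript are ligated, amplified and counted, so that each probe reports a short stretch of 1 transcript.

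The clock of a liver cell is a transcriptional feedback loop. BMAL1, the protein of Arntl, pairs with CLOCK, binds E-box elements and drives the Per and Cry genes, whose proteins repress the pair, and also Nr1d1 and Nr1d2, which encode the receptors REV-ERBalpha and REV-ERBbeta that repress Arntl in turn. The same pair drives Dbp, which with Tef and Hlf forms the PAR bZip family of activators that bind D-box elements and pass the rhythm on to enzymes of drug and lipid metabolism. In liver these transcripts rise and fall over the day, with Arntl and Cry1 peaking at other hours than Dbp and Nr1d1, so that a level taken at one moment depends on the hour as well as on the state of the tissue.

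On the GRCm38 genome, in the GENCODE M21 annotation, Dbp lies on chromosome 7 from 45705088 to 45710203 and Arntl on the same chromosome from 113207465 to 113314126. Nr1d1 lies on chromosome 11 from 98767932 to 98775333, Nr1d2 on chromosome 14 from 18204054 to 18239127, Per3 on chromosome 4 from 151003652 to 151044665, Tef on chromosome 15 from 81802421 to 81826863 and Cry1 on chromosome 10 from 85131700 to 85185064. The place of each probe within its gene was not used here.

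These 4 stretches of promoter sequence are shown because they belong to members described below and hold letters that clock proteins are known to recognise. Each is the 250 bases before the RefSeq transcript start (GRCm38.p6), read along the gene's own strand, from chr11:98775378-98775627 (minus strand) for Nr1d1, chr14:18239107-18239356 (minus strand) for Nr1d2, chr4:151044666-151044915 (minus strand) for Per3 and chr10:85185055-85185304 (minus strand) for Cry1. Capitals mark matches to the E-box CACGTG, its variant CACGTT, the half-site AGGTCA bound by nuclear receptors and the D-box TTATGTAA, searched on both strands (the variant reads AACGTG on the other), and no marked match overlaps another.
Nr1d1: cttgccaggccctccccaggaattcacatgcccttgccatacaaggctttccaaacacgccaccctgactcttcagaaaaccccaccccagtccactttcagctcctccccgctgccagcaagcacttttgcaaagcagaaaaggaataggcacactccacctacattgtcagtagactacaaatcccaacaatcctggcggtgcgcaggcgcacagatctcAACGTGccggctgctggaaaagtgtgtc
Nr1d2: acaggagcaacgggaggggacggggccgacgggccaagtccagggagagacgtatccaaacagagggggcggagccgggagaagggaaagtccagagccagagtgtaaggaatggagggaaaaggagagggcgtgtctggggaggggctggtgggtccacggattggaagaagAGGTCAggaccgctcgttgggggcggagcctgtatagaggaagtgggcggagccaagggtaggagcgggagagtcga
Per3: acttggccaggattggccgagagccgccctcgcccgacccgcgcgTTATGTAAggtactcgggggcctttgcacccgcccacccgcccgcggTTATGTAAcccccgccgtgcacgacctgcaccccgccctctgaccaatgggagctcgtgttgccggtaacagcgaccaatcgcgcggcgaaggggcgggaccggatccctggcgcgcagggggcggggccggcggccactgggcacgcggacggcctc
Cry1: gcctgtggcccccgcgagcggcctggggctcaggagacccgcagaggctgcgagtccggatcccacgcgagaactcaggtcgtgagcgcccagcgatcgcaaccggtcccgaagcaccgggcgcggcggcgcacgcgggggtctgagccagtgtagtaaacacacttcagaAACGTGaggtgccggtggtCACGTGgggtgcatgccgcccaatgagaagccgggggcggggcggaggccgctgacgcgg
Per3 holds TTATGTAA at both 205 and 158 bases before the start, Cry1 holds CACGTG and the variant, Nr1d1 holds the variant 28 bases before the start, and Nr1d2 holds the half-site 77 bases before it. RefSeq promoters were found for 9 of the 10 genes, of which 3 held CACGTG, 2 the variant, 2 the half-site and 1 the D-box. Counted by window, as for all promoters below, 4 of their 12 windows held CACGTG, 2 the variant, 2 the half-site and 1 the D-box. The windows of Dbp, Arntl and Hlf held none of these. Over all 32851 promoter windows of the same length, 6.02% held CACGTG, 3.85% the variant, 14.0% the half-site and 0.819% the D-box, so single matches to the half-site in particular are common.

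Of the 15 probes, 10 passed the filter on low counts and were tested, and they cover 7 genes: Dbp with 3 probes, Cry1 with 2, and Tef, Nr1d1, Nr1d2, Per3 and Arntl with 1 each. Hlf (2 probes), Per1, Per2 and the third Cry1 probe did not pass. The Per1 and Per2 probes, for repressors of the clock, gave 14 and 13 counts over all 20 libraries and 0 counts in 13 libraries each, so their response could not be measured here. The better Hlf probe gave 1 to 20 counts per library, with 0.683 ± 0.133 CPM (SD, n = 4) in controls and 0.803 ± 0.607 CPM at 6 mg/kg. CPM are counts for every 1000000 counts of a library after scaling, and since each probe has its own efficiency they compare 1 probe between livers, not 1 gene with another. The third Cry1 probe held 0 to 5 counts.

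Library totals ran from 6823518 to 10310931 counts, and 3 counts were worth between 0.251 and 0.511 CPM. The mean correlation of a library with its group was 0.942 to 0.984, except that 3 mg/kg replicate 4 (0.870) and 6 mg/kg replicate 4 (0.940) stood lower. The calls of the clock probes, the count of rhythmic outputs at 6 mg/kg and the relations of Dbp are given without them as well. The counts of the other lists and the marker sums are not. By the sample names, row A of the plate held all control and 0.03 mg/kg libraries, row B all those of the 2 highest doses, and the 0.3 mg/kg group had 1 library in row B. Against controls, the higher doses and the plate row therefore cannot be told apart, whereas 6 against 3 mg/kg lies within 1 row. Each dose is compared with the same 4 controls, so the 4 dose comparisons are not independent of each other.

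At 6 mg/kg the REV-ERB genes and Dbp fell, while Arntl and Cry1 did not pass the test in either direction. Tests are edgeR's quasi-likelihood test, with p-values adjusted by Benjamini-Hochberg over all 14122 tested probes and 0.05 as the threshold. Of the 10 probes, 3 were called lower and 0 higher, where 8.73% of all probes were called lower, 11.6% higher and 20.3% in all. An unadjusted p under 0.05 was found for 4 of the 10 and for 35.1% of all probes. The median log2 change over the 7 genes was -1.05, against 0.01 over all probes, and 6 of the 7 were negative. Libraries of the groups did not overlap for 2 of the 10 probes, both lower at 6 mg/kg, against 13.6% of all probes lower and 13.2% higher without overlap.

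**Figure D1:**
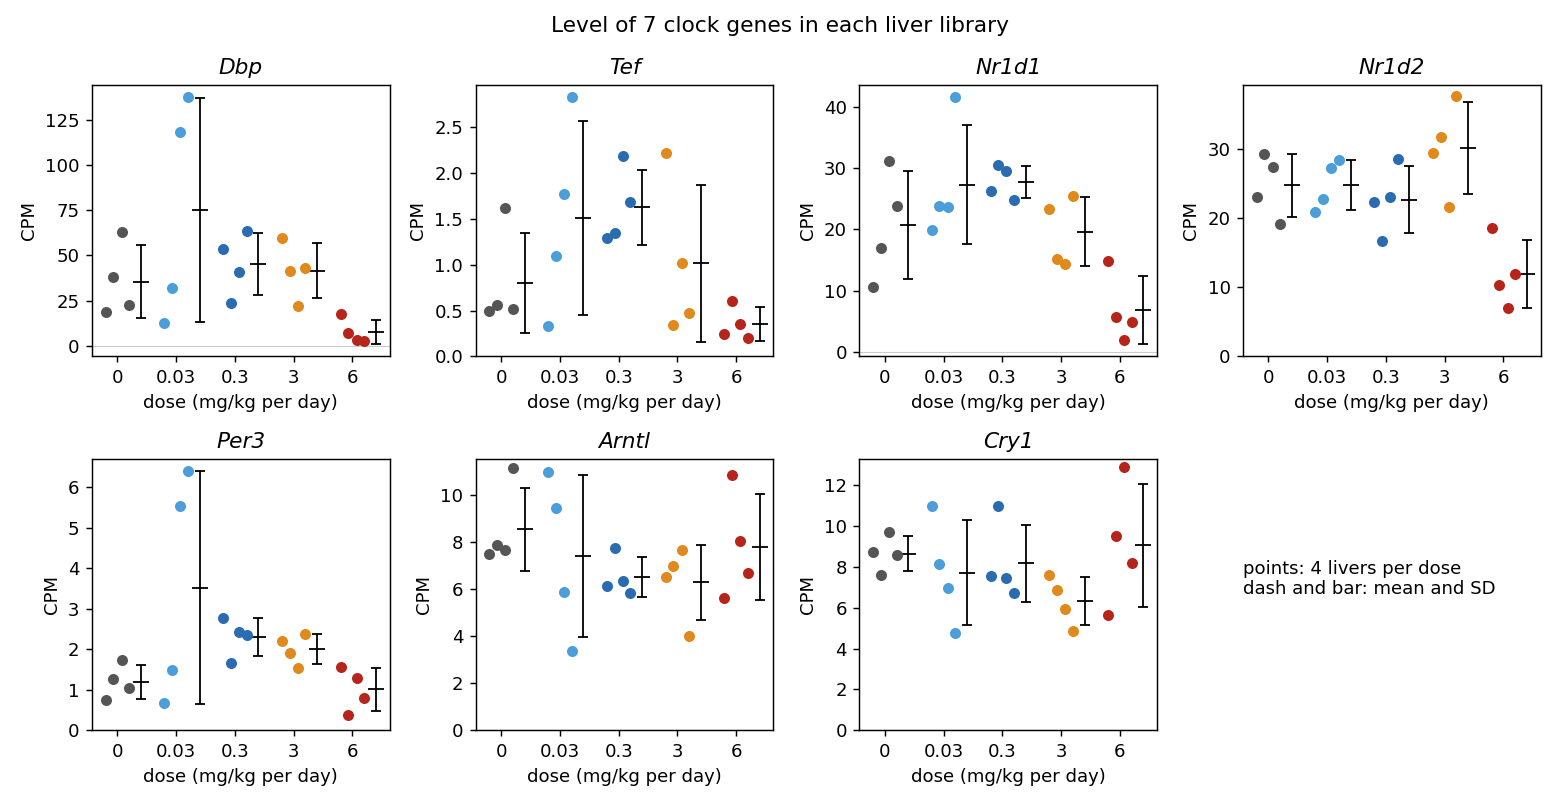
Level of the 7 measured clock genes (highest probe of each) in every liver, in CPM, against dose in mg/kg per day. Each point is 1 library, and the dash with its bar is the mean with the SD of 4. For Dbp and Nr1d2 all 4 livers at 6 mg/kg lie below all 4 controls, and for Arntl and Cry1 the groups overlap.

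Nr1d2 encodes REV-ERBbeta, a nuclear receptor that represses Arntl. Its 4 control livers held 23.1, 29.3, 27.5 and 19.2 CPM, and the livers at 6 mg/kg held 18.6, 10.4, 6.98 and 11.9 CPM. The highest treated liver thus lay just under the lowest control. The log2 change was -1.05 (SE 0.24, 95% interval -1.55 to -0.54, edgeR adjusted p = 0.0044), a level 2.07-fold lower. It stood at 24.8 ± 3.61 CPM (SD, n = 4) at 0.03, 22.7 ± 4.83 at 0.3 and 30.2 ± 6.67 at 3 mg/kg, so that the 4 lower groups did not differ beyond their spread and 3 mg/kg was the highest in mean.

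Nr1d1 encodes REV-ERBalpha, the partner receptor. Controls held 10.6, 17.0, 31.2 and 23.8 CPM, and the livers at 6 mg/kg held 14.8, 5.60, 1.89 and 4.90 CPM. Replicate 1 at 6 mg/kg lay above the lowest control, and the other 3 lay below all controls. The log2 change was -1.61 (SE 0.43, 95% interval -2.52 to -0.70, edgeR adjusted p = 0.013). The group means at the doses between were 27.3 ± 9.72 CPM (SD, n = 4) at 0.03, 27.8 ± 2.65 at 0.3 and 19.6 ± 5.65 at 3 mg/kg, all within the range of the controls except 1 liver at 0.03 mg/kg with 41.6 CPM.

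Dbp encodes a PAR bZip activator that is strongly rhythmic in liver. Its highest probe gave 18.6, 37.9, 63.2 and 22.6 CPM in controls and 17.4, 7.31, 3.55 and 2.80 CPM at 6 mg/kg. The groups did not overlap, but 6 mg/kg replicate 1 lay just under the lowest control. The log2 change was -2.20 (SE 0.68, 95% interval -3.63 to -0.78, edgeR adjusted p = 0.028), a level 4.61-fold lower. The second probe was at -1.22 (SE 0.65) and the third at -1.87 (SE 0.85), and neither passed (edgeR adjusted p = 0.19 and 0.13). Across the 20 libraries the 3 Dbp probes followed each other closely, with Pearson's r between 0.932 and 0.945 on the log2 scale as a description of probes that share libraries and a transcript.

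The call of Dbp was the least firm of the 3. It was lost when control replicate 2 or 3, or 6 mg/kg replicate 2, 3 or 4, was left out (edgeR adjusted p from 0.052 to 0.095), and also with no count filter (-2.19, edgeR adjusted p = 0.090) and with the Dbp probes summed (-1.80, edgeR adjusted p = 0.059), while without 6 mg/kg replicate 1 all 3 Dbp probes were called, at -2.98, -2.03 and -3.03. Without both libraries that stood apart the highest Dbp probe gave -1.91, short of the threshold (edgeR adjusted p = 0.11), and the calls of Nr1d1 and Nr1d2 held. Nr1d1 and Nr1d2 also held when each of the 20 libraries was left out in turn. With plate row as a covariate, which only the 0.3 mg/kg group can inform, none of the 3 passed, with changes of -1.51 for Nr1d2 (edgeR adjusted p = 0.058), -2.90 for Dbp (0.17) and -1.40 for Nr1d1 (0.32). The median SE of the 10 probes then went from 0.51 to 0.92 and their median absolute log2 change from 1.13 to 1.17.

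**Figure D2:**
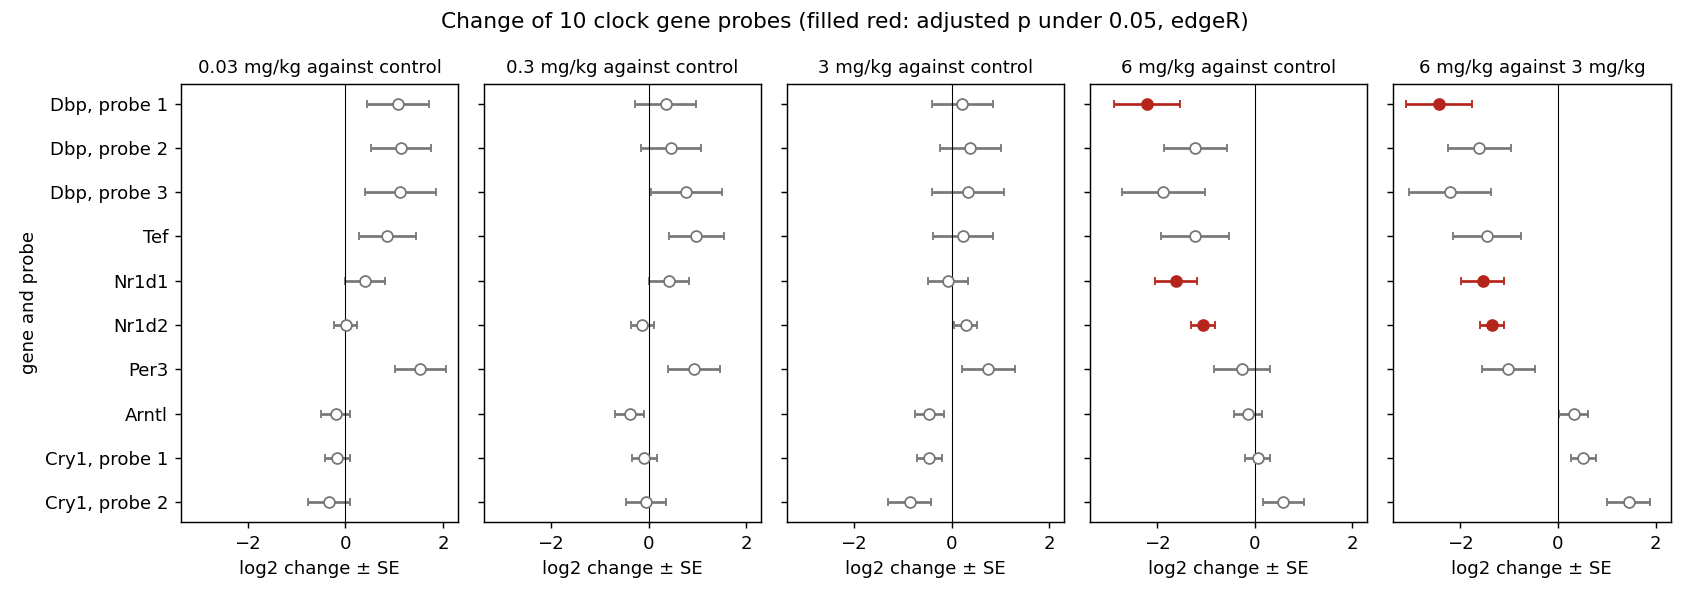
Log2 change with its SE for the 10 tested probes (rows) in 5 comparisons (panels), from the fit to all 20 libraries. Filled red points passed the edgeR test, which are the first Dbp probe, Nr1d1 and Nr1d2 in each of the last 2 panels, and open points did not.

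Tef, the second PAR bZip gene measured, was near the floor. Controls held 4, 4, 15 and 4 counts, and the livers at 6 mg/kg held 2, 5, 3 and 2 counts. Its log2 change was -1.22 (SE 0.70), with a 95% interval from -2.68 to 0.24, and it did not pass (edgeR adjusted p = 0.22). Most of these counts are at or near 3.

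Per3, a Period gene of the negative limb, was at 0.749, 1.27, 1.73 and 1.04 CPM in controls and at 1.56, 0.365, 1.30 and 0.800 CPM at 6 mg/kg. These groups overlap, and the log2 change was -0.26 (SE 0.58, 95% interval -1.46 to 0.94). It did not pass (edgeR adjusted p = 0.78), although the interval leaves room for a fall as large as that of Nr1d2.

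Arntl, the gene of BMAL1, gave 7.49, 7.88, 7.66 and 11.2 CPM in controls and 5.64, 10.8, 8.04 and 6.70 CPM at 6 mg/kg. The 2 groups share their range, with a log2 change of -0.13 (SE 0.29) and a 95% interval from -0.74 to 0.47. Cry1, a repressor whose transcript peaks later than those of the Per genes, was at 8.65 ± 0.862 CPM (SD, n = 4) in controls and 9.06 ± 3.02 CPM at 6 mg/kg on its highest probe, a log2 change of 0.06 (SE 0.25, 95% interval -0.46 to 0.59). Its second probe was at 0.59 (SE 0.41). Neither passed (edgeR adjusted p = 0.88 and 0.32).

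The comparison of 6 with 3 mg/kg, whose 8 libraries share plate row B, asks where the clock genes moved between these doses. Again 3 of 10 probes were called lower and 0 higher, where 2.77% of all probes were called lower, 3.96% higher and 6.73% in all, and they were the same 3 probes. Nr1d2 went from 29.5, 31.8, 21.6 and 37.8 CPM at 3 mg/kg to the values above, a log2 change of -1.34 (SE 0.24, edgeR adjusted p = 0.0033). Every liver at the higher dose lay below every liver at the lower. Dbp was at 59.5, 41.4, 22.3 and 42.8 CPM at 3 mg/kg, and the change was -2.43 (SE 0.68, edgeR adjusted p = 0.039), again without overlap. Nr1d1 was at 23.4, 15.2, 14.3 and 25.5 CPM at 3 mg/kg, with a change of -1.54 (SE 0.43, edgeR adjusted p = 0.040) and 1 liver at 6 mg/kg inside the range of the 3 mg/kg group. Without overlap, 3 of the 10 were lower and 0 higher (Nr1d2 and 2 Dbp probes), against 5.20% and 5.90% of all probes. An unadjusted p under 0.05 was found for 7 of the 10 and for 23.3% of all.

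The second Cry1 probe had the opposite sign between these doses. It held 4.56, 4.73, 7.84 and 0.477 CPM at 3 mg/kg and 6.48, 15.0, 12.7 and 12.2 CPM at 6 mg/kg, a log2 change of 1.45 (SE 0.44) that missed the threshold (edgeR adjusted p = 0.0504). Replicate 4 at 3 mg/kg, which stood apart from its group, gave 5 counts on this probe and 51 on the first Cry1 probe. Without that library the change was 1.05 and passed (edgeR adjusted p = 0.012). It also passed with total counts, relative log expression factors, a mean of at least 5 CPM, limma-voom, DESeq2, a fit with no robust step and without both libraries that stood apart, with adjusted p from 0.016 to 0.0497, and over all alternatives other than single leave-outs adjusted p ran from 0.016 to 0.29. With the 3 Cry1 probes summed the change was 0.99 and passed (edgeR adjusted p = 0.029). The count of 0 higher at this comparison therefore depends on the settings. The first Cry1 probe gave 0.52 (SE 0.26), short of the threshold (edgeR adjusted p = 0.23), so the probes of this gene agree in sign and differ in size. Arntl was at 0.32 (SE 0.30) and Per3 at -1.01 (SE 0.55), and neither passed. The Dbp call at 6 against 3 mg/kg was lost with limma-voom (adjusted p = 0.051) and with summed probes (edgeR adjusted p = 0.060), and that of Nr1d1 with total counts (edgeR adjusted p = 0.056). Both were also lost with no count filter and without both libraries that stood apart. Of the 20 single leave-outs, 7 lost the call of Dbp and 9 that of Nr1d1, while Nr1d2 kept its call in all 20. The 3 calls at 6 against 3 mg/kg stood with plate row as a covariate, which cannot test them because all 8 libraries lie in row B. Fitted on these 8 libraries alone, 0 of the 10 clock probes were called, where 11 of all probes were. Without both libraries that stood apart 1 was called lower and 1 higher.

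At the 3 lower doses no clock probe passed. At 3 mg/kg against control, 0 of 10 were called, where 1.49% of all probes were (1.11% higher and 0.382% lower), and 0 had an unadjusted p under 0.05, against 12.2% of all. At 0.3 mg/kg 0 of 10 were called, where 0% of all probes were, and 0 had an unadjusted p under 0.05, against 8.32% of all. At 0.03 mg/kg 0 of 10 were called, where 0% of all probes were, and 1 had an unadjusted p under 0.05, against 3.24% of all: Per3 at 1.53 (SE 0.51). At each of these doses all 10 overlapped with the controls, where 2.01%, 3.33% and 3.35% of all probes at 0.03, 0.3 and 3 mg/kg were higher without overlap and 1.49%, 3.38% and 4.62% lower. DESeq2 and limma-voom called 0 of the 10 at each of these doses too. The intervals are wide: for the highest Dbp probe the log2 change at 0.03 mg/kg had a 95% interval of -0.25 to 2.40, and that at 3 mg/kg one of -1.10 to 1.54.

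The 4 livers at 0.03 mg/kg differed widely among themselves for Dbp. They held 12.8, 31.8, 118 and 137 CPM, a range of 10.8-fold against 3.40-fold in controls, 2.67-fold at 0.3, 2.67-fold at 3 and 6.22-fold at 6 mg/kg. As a share of the mean, the SD was 82.5% at 0.03 mg/kg and 86.6% at 6 mg/kg. Replicates 3 and 4, which were high for Dbp, were also high for Per3, at 5.54 and 6.41 CPM against 0.666 and 1.49 CPM in the other 2 livers. They were low for Arntl, at 5.87 and 3.37 CPM against 10.98 and 9.45 CPM. In replicates 1 to 4 of this group the 2 tested erythroid markers summed to 17.6, 23.5, 59.4 and 66.0 CPM and the heat shock list to 375, 384, 692 and 1076 CPM, both highest in the same 2 livers, and their part in the spread of Dbp was not tested.

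**Figure D3:**
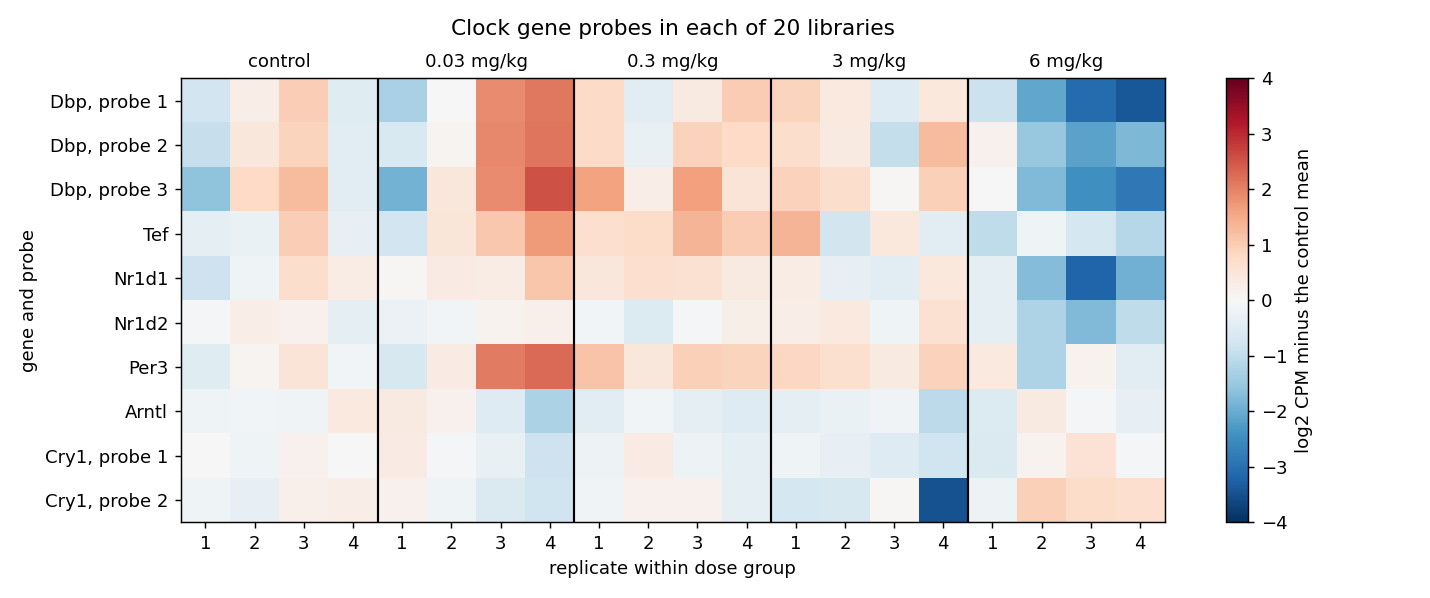
Log2 CPM of each of the 10 tested probes (rows) in each of the 20 libraries (columns, 4 per dose), after subtraction of the probe's control mean, with red above and blue below it. Dbp and Per3 are highest in replicates 3 and 4 at 0.03 mg/kg, and the highest Dbp probe and Nr1d1 are lowest in replicates 2, 3 and 4 at 6 mg/kg.

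The relations over all groups are given with and without the 4 livers at 0.03 mg/kg. Without them Pearson's r with Dbp was weaker for Per3, Tef, Arntl and Cry1, and stronger for Nr1d1 and Nr1d2. After subtraction of each group's mean on the log2 scale, Dbp was compared with the other 6 measured genes over 20 libraries, 6 relations in all, with p-values from 100000 permutations within groups. Dbp and Nr1d2 gave Pearson's r of 0.69 (permutation p = 0.00093, adjusted 0.0056) and Spearman's rho of 0.69 (permutation p = 0.0043, adjusted 0.018). Dbp and Per3 gave r = 0.80 (permutation p = 0.0088, adjusted 0.020) and rho = 0.75 (permutation p = 0.0061, adjusted 0.018). Dbp and Nr1d1 gave r = 0.62 (permutation p = 0.0098, adjusted 0.020) and rho = 0.56 (permutation p = 0.025, adjusted 0.048), and Dbp and Tef gave r = 0.61 (permutation p = 0.019, adjusted 0.027) and rho = 0.54 (permutation p = 0.032, adjusted 0.048). These 4 relations passed over all 20 libraries.

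Arntl and Cry1 went against Dbp by Pearson's r, at -0.66 (permutation p = 0.032, adjusted 0.032) and -0.64 (permutation p = 0.023, adjusted 0.027), but not by rank, where rho was -0.52 (permutation p = 0.076, adjusted 0.076) and -0.51 (permutation p = 0.059, adjusted 0.071). Without the 0.03 mg/kg group (16 libraries, an alternative chosen after seeing the data), Nr1d2 passed by Pearson's r, at 0.75 (permutation p = 0.0078, adjusted 0.047), but not by rank, where rho was 0.61 (permutation p = 0.037, adjusted 0.11). None of the other 5 passed after adjustment: r was 0.69 for Nr1d1 (permutation p = 0.035, adjusted 0.10), 0.53 for Per3, 0.32 for Tef, -0.37 for Arntl and -0.45 for Cry1 (permutation p from 0.14 to 0.25, adjusted 0.25). The relations of Dbp with Nr1d1, Per3, Tef, Arntl and Cry1 thus lost their calls without the 0.03 mg/kg livers. For Arntl and Cry1 these had been calls by Pearson's r only. For Nr1d1 r was 0.62 over all 20 libraries and 0.69 over these 16, so its call was lost at a larger r. The relation with Nr1d2 kept its call by Pearson's r and lost it by rank. Without the 2 libraries farthest from the median in Dbp, 0.03 mg/kg replicate 1 and 6 mg/kg replicate 1, r was 0.64 for Nr1d2, 0.69 for Per3, 0.54 for Nr1d1, 0.59 for Tef, -0.53 for Arntl and -0.45 for Cry1. With the 2 libraries that stood apart left out instead, r was 0.76 for Nr1d2, 0.81 for Per3 and 0.64 for Nr1d1. It was then 0.62 for Tef, -0.76 for Arntl and -0.71 for Cry1. Within plate row A (11 libraries) and row B (9 libraries) r was 0.78 and 0.74 for Nr1d2, 0.98 and 0.32 for Per3, 0.58 and 0.77 for Nr1d1, 0.89 and 0.13 for Tef, -0.83 and -0.31 for Arntl, and -0.76 and -0.50 for Cry1. For Per3, Tef and Arntl r was farther from 0 in row A, a difference that was not tested. Values of a pair come from 1 library and share its depth and scaling.

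**Figure D4:**
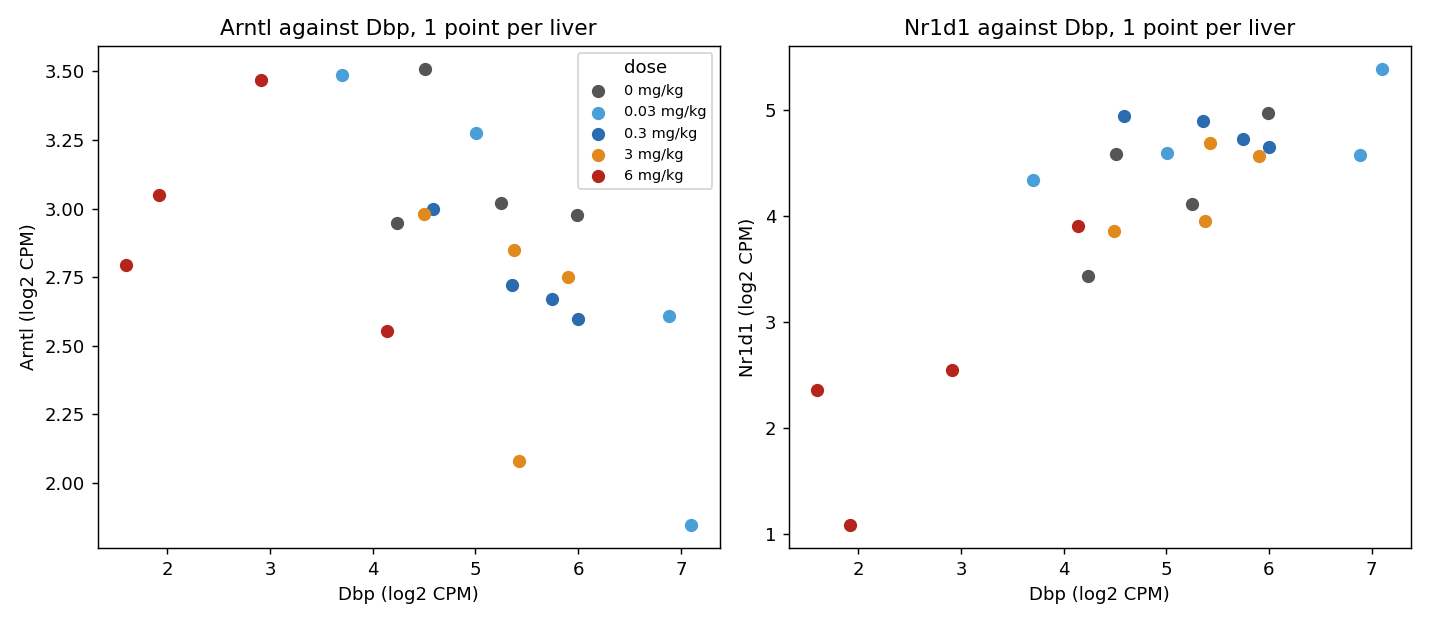
Arntl (left) and Nr1d1 (right) against Dbp, each in log2 CPM, with 1 point per liver coloured by dose. In the plot, 3 of the 4 livers at 6 mg/kg have the lowest Dbp of all, with Nr1d1 also lowest, while their Arntl lies within the range of the controls or below it.

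The distance between Dbp and Arntl in each liver puts both arms on 1 scale. The log2 difference, Dbp minus Arntl, was 1.29, 2.23, 3.01 and 1.002 in controls, 0.21, 1.73, 4.28 and 5.26 at 0.03 mg/kg, 3.07, 1.59, 2.64 and 3.40 at 0.3, 3.15, 2.53, 1.51 and 3.35 at 3, and 1.59, -0.55, -1.13 and -1.19 at 6 mg/kg. It was below 0 in 3 livers, all at 6 mg/kg, and the lowest of the other 17 was 0.21, at 0.03 mg/kg. Replicate 1 at 6 mg/kg lay inside the control range. The sign itself has no meaning across probes of different efficiency, and only the order of the livers does.

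A slope over dose rank, from 0 for control to 4 for 6 mg/kg, was called for 0 of the 10 probes by edgeR and limma-voom. With edgeR 18.0% of all probes were called (11.3% higher and 6.72% lower). An unadjusted p under 0.05 was found for 2 of them, against 33.0% of all, Nr1d1 at -0.34 (SE 0.13) and the highest Dbp probe at -0.48 (SE 0.21) per rank, and DESeq2 called these 2. With dose in mg/kg in place of rank, 5 probes were called lower: the 3 of Dbp, Nr1d1 and Tef. The shares of all probes called by DESeq2 and with dose in mg/kg are not given here. The counts of 2 and 5 can therefore not be set against them. The means of Dbp fell in the order 75.1 CPM at 0.03, 45.4 at 0.3, 41.5 at 3, 35.6 in controls and 7.77 at 6 mg/kg, so only the last step goes beyond the spread of its neighbours.

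Other genes of the clock machinery were taken as a fixed list of 17 symbols, of which 16 were in the table and 12 were tested. At 6 mg/kg 3 rose, 3 fell and 6 did not pass, with a median of 0.14 against 0.01 over all probes, of which 11.6% were called higher and 8.73% lower. Csnk1e and Csnk1d, the casein kinases that phosphorylate PER proteins, rose by 0.78 (SE 0.25) and 0.69 (SE 0.23).

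Bhlhe40, an E-box repressor that the clock itself drives, fell by 1.15 on the log2 scale (SE 0.24, edgeR adjusted p = 0.0019), from 93.5 ± 22.4 to 42.0 ± 10.1 CPM (SD, n = 4), and its call held without each library in turn. Btrc, a ubiquitin ligase subunit acting on PER proteins, fell by 0.65 (SE 0.20). The calls of Btrc and of the kinases were lost when any of several single libraries was left out, with 13 to 15 of the 20 leave-outs keeping them. With plate row as a covariate 0 of the 12 passed. The 6 that did not pass are named after their values were seen: Clock at 0.01 (SE 0.22), Npas2 at 0.41 (SE 0.52), Cry2 at -0.36 (SE 0.24), Rora at 0.27 (SE 0.23), Bhlhe41 at -0.95 (SE 0.71), and Nfil3, the repressor of D-box elements, at 0.57 (SE 0.20, edgeR adjusted p = 0.054). Ciart, a further repressor of the BMAL1 pair, gave at most 13 counts and was not tested.

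Of 13 tested genes of a list of rhythmic liver outputs, 3 rose at 6 mg/kg and 0 fell, with a median of -0.16, where 20.3% of all probes were called, so the count is near that share. They were Insig2, a brake on sterol synthesis, at 1.30 (SE 0.18), Cdkn1a, a cell cycle inhibitor that also responds to stress, at 2.78 (SE 0.58), and Wee1, a mitotic kinase, at 0.80 (SE 0.26). Cdkn1a was near the floor in controls, at 0.422 ± 0.274 CPM (SD, n = 4), against 3.05 ± 0.836 CPM at 6 mg/kg. The Wee1 call was lost without control replicate 1 or 2 or 6 mg/kg replicate 2 or 3 (edgeR adjusted p from 0.080 to 0.091) and with limma-voom (adjusted p = 0.066), and with plate row as a covariate its change was 0.42. Without both libraries that stood apart 4 rose and 2 fell, and with plate row as a covariate 1 passed.

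A list of 7 genes reported to depend on the PAR bZip factors was followed beside Dbp. At 6 mg/kg 4 rose and 1 fell, where 11.6% of all probes were called higher and 8.73% lower. The median was 2.44, and 3 passed with plate row as a covariate. At 3 mg/kg, where no clock probe passed, 3 of the 7 rose, where 1.11% of all probes were called higher. At 6 mg/kg Nr1i3 was not called, with 297 ± 46.8 CPM (SD, n = 4) against 443 ± 116 CPM in controls. Cyp2b10 was at 5.11 (SE 0.46), Por, the reductase of the cytochrome P450 system, at 3.23 (SE 0.36), Cyp2a5 at 2.72 (SE 0.26) and Cyp2a4 at 2.44 (SE 0.51), all 4 called, while Ppara fell by 0.81 (SE 0.17). Alas1, the first enzyme of heme synthesis, was at 2.15 (SE 0.76) and missed the threshold (edgeR adjusted p = 0.053), which it passed under 7 of 11 alternatives, DESeq2 (adjusted p = 0.027) and total counts (edgeR adjusted p = 0.036) among them, and without control replicate 3, 0.03 mg/kg replicate 4 or 3 mg/kg replicate 4. Por stood at 148, 296, 301 and 78.6 CPM at 6 mg/kg against 15.9 to 28.7 CPM in controls.

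A further 3 short lists of signals that can shift the liver clock were read beside it. Of 7 glucocorticoid-responsive genes 1 rose, Fkbp5 at 1.19 (SE 0.30), and 1 fell, Mt1 at -1.85 (SE 0.46). Of 6 tested feeding and fasting genes 0 rose and 1 fell, Fgf21, and of 7 heat shock genes 1 rose, Hsp90aa1 at 1.79 (SE 0.26), and 0 fell. These counts lie near the 20.3% called over all probes. The median changes of the 3 lists were -0.11, -0.02 and 0.12. Their part in the change of the clock genes was not tested.

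Markers of other liver cells at 6 mg/kg were read in the same way, since in whole tissue fewer cells of a type and less RNA per cell cannot be told apart. Over all probes 20.3% were called at this dose, 11.6% higher and 8.73% lower. Of 4 hepatocyte markers 1 rose and 1 fell, with a summed level of 12391 to 15020 CPM against 17343 to 21951 CPM in controls. In means, Alb was at 6060 CPM against 10689 in controls and Apoa1 at 5923 against 6307. Ttr was at 2142 against 2266 and Tat at 6.21 against 2.67 CPM. Of 7 Kupffer cell markers 1 fell, and the sum of the 7 was 63.0 to 111 CPM against 102 to 153 CPM. Of 7 stellate cell markers 3 were called lower and 1 higher, with a sum of 67.9 to 99.8 CPM against 107 to 141 CPM. In that sum Dcn had a mean of 34.4 CPM at 6 mg/kg and 77.2 CPM in controls. The means of Lrat, Reln and Des were lower too, while those of Col1a1, Col3a1 and Pdgfrb were higher. Of 5 endothelial markers 1 rose, and the sum of the 5 was 137 to 199 CPM against 138 to 182 CPM. Of 5 lymphocyte and neutrophil markers 1 rose and 1 fell, and the sum of the 5 was 40.1 to 64.8 CPM against 10.8 to 22.5 CPM. That sum was higher while the median change of these 5 was -0.58. In it S100a8 had a mean of 46.9 CPM at 6 mg/kg and 1.53 CPM in controls, while the means of Ptprc, Cd3d, Cd79a and Nkg7 were lower. The Kupffer markers Marco and Timd4 had 0 counts in 13 libraries each, and the cholangiocyte marker Epcam in 13. The part of these cells in the fall of Dbp, Nr1d1 and Nr1d2 was not tested.

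The probes most like Dbp and Arntl were sought among 6563 probes of other genes with a mean of at least 10 CPM, by Pearson's r over the 20 libraries after subtraction of group means, as a description only. For Dbp they were Armcx3 (r = 0.87), both probes of Xbp1, a regulator of the unfolded protein response (0.82 and 0.81), Hbb-bt, a globin (0.81), and Dnaja1, a chaperone (0.79). None of these 5 probes passed at 6 mg/kg, where Armcx3 stood at -0.04 (SE 0.20) and Hbb-bt at -0.97 (SE 0.52). The 2 tested erythroid markers summed to 14.5 to 27.3 CPM at 6 mg/kg, 13.2 to 36.0 CPM in controls and 17.6 to 66.0 CPM at 0.03 mg/kg. For Arntl they were 3 probes of Rnf125, a ubiquitin ligase (0.89, 0.86 and 0.81), Aqp8, a water channel (0.81), and Ahctf1 (0.81). At 6 mg/kg Aqp8 was called higher, at 0.97 (SE 0.26, edgeR adjusted p = 0.011), and Ahctf1 lower, at -0.58 (SE 0.18, edgeR adjusted p = 0.027). The 3 probes of Rnf125 stood at -1.04, 0.28 and 0.65 and did not pass.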

How the data were processed

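The authors deposited a table of whole-number counts for each probe and liver, not normalized. Bowtie and the GRCm38.p5 build are named, per the submitters' processing notes, without settings. From these counts, filterByExpr in edgeR 4.0.16 (R 4.3.3) kept 14122 probes holding 99.8% of the counts, TMM factors scaled the libraries, and a robust quasi-likelihood model with 1 mean per group was fitted to all 20 libraries. Standard errors are the log2 change divided by the root of F. CPM use the TMM-scaled library sizes, and log2 CPM add a prior count of 2.

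The members and lists were chosen with earlier results of these data known. All probes of the members are named, with the list genes of smallest p. Some genes of the list of other clock genes are counted but not reported by name here. Replicate numbers only name animals and pair none. Libraries come from separate animals. Libraries of 1 group were compared for copies (lowest chi-square per degree of freedom 4.04 over 30 pairs). Amplified reads are not independent molecules. The functions were tested on simulated data. Alternatives were other scalings, filters, DESeq2 1.42.0, limma-voom (limma 3.58.1), a fit that is not robust, summed probes, 8-library fits, plate row, dose scale and each library left out.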

Additional observations from a re-analysis of the deposited data

Results flagged for a closer look

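In 3 of the 50 sets of 4 libraries checked (10 probes in 5 groups), 1 library lay far from the other 3 by Dixon's test at its 95% level, which chance gives in about 1 of 20 sets. The second Dbp probe stood at 15.6 CPM in 6 mg/kg replicate 1, against 2.96 to 4.75 CPM in the other 3 livers of that dose, and the same liver was the highest of its group for the other Dbp probes and for Nr1d1 and Nr1d2. Tef stood at 1.62 CPM in control replicate 3, which is 15 counts, while the other controls held 0.499 to 0.563 CPM, and that library was also the highest control for Dbp and Nr1d1. Arntl stood at 11.2 CPM in control replicate 4, against 7.49 to 7.88 CPM in the other controls.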

How the results depend on the processing

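No paired analysis was possible because the labels give the animals no replicate numbers shared between groups. The cause of the changes below was not tested. At 6 mg/kg against control, the 3 calls became 0 with plate row as a covariate and ranged from 2 to 5 with single libraries left out (5 without 6 mg/kg replicate 1). They became 2 with no count filter, with summed probes and without both libraries that stood apart, where Dbp lost its call. At 6 against 3 mg/kg, the 3 calls became 1 with no count filter and 0 in a fit of the 8 libraries alone, and ranged from 1 to 6 with single libraries left out (6 without 6 mg/kg replicate 1). With total counts, limma-voom and summed probes the count stayed 3, as 1 higher and 2 lower. It became 1 without 0.3 mg/kg replicate 1, 3 mg/kg replicate 1 or 2, or 6 mg/kg replicate 2, 3 or 4. For the slope, 0 calls became 2 with DESeq2 and 5 with dose in mg/kg, and ranged from 0 to 1 with single libraries left out. The calls at 0.03, 0.3 and 3 mg/kg were 0 under every alternative run. Scaling by total counts gave 1894 probes higher and 811 lower at 6 mg/kg, against 1634 and 1233. For most other alternatives the shares of all probes called are not given here. Their counts of clock probes can therefore not be set against such shares.

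Signs that turned belong to log2 changes that passed no test. With total counts, Cry1 at 0.3 mg/kg was 0.068 and 0.11 on its 2 probes, Nr1d2 0.026, and the Cry1 slope 0.018. At 0.03 mg/kg, Nr1d2 was -0.0022 with relative log expression factors and -0.0022 with DESeq2. Tef at 3 mg/kg was -0.0042 with limma-voom. The Cry1 slope was 0.00079 with a mean of at least 5 CPM, 0.056 with summed probes, 0.0093 with dose in mg/kg and 0.0075 without both libraries that stood apart. With plate row, the second Cry1 probe at 0.3 mg/kg was 0.054; at 3 mg/kg Nr1d1 was 0.14, Dbp -0.47 and Nr1d2 -0.17; Arntl at 6 mg/kg was 0.081; and the slopes of Cry1 and Per3 were 0.11 and 0.017.

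With single libraries left out, at 0.03 mg/kg the log2 change ran from -0.38 to 0.0067 for Cry1, -0.45 to 0.039 for Arntl and -0.096 to 0.092 for Nr1d2. At 0.3 mg/kg it ran from -0.26 to 0.0056 and from -0.15 to 0.063 on the 2 Cry1 probes. At 3 mg/kg it ran from -0.26 to 0.22 for Nr1d1 and -0.48 to 0.88 for Tef. At 6 mg/kg it ran from -0.13 to 0.23 for Cry1, -0.33 to 0.043 for Arntl and -0.54 to 0.0015 for Per3. The Cry1 slope ran from -0.059 to 0.012. Low counts limit Tef, Per3 and Hlf, and leave Per1 and Per2 unmeasured. The cause of the low counts was not tested.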
